A study of Homo sapiens with 12 samples.

Results

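RNA levels after 2 d of all-trans retinoic acid (ATRA) were compared with those after 4 h across all genes in HL-60, an established human line of promyelocyte-like leukemia cells and a standard model of neutrophil maturation. The comparison took 3 bulk RNA-seq libraries at each time, 6 of the 12 libraries in the series, and no library of untreated cells entered. Both groups are the same established cell line in the same 1 µM dose of ATRA, so they differ in the length of treatment together with the length of culture, which cannot be told apart here. According to its title, the series follows neutrophil differentiation from early to late stages. Whether the replicates of a group are independent cultures is not stated in the labels, and a p-value here reflects only library-to-library spread, which may be technical.

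ATRA is an active form of vitamin A. It binds the retinoic acid receptors, which sit with RXR partners on their target genes and switch them from repression to activation, and in promyelocytic cells it starts a program that ends in non-dividing, neutrophil-like cells. Direct targets respond within hours, whereas granule proteins, the oxidase and the surface receptors of the mature cell are acquired over days. In normal maturation the proteins of the primary, secondary and tertiary granules are made in that order, and growth and the production of ribosomes wind down as the cell leaves the cycle.

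Of 26364 genes listed, 12122 had enough reads to be tested, and these held 99.9% of the reads in genes. Reads in genes came to between 7866757 and 13658177 per library. The number of genes read at all was 22265 in 4 h replicate 1 and 15198 to 15748 elsewhere, and reads outside genes made up 28.1% of that library and 14% to 21.6% of the rest. Each library was set against the mean of the other libraries of its group, with transcript length in the fit. Expression then rose with GC content in 4 h replicate 3, by 0.42 on the log2 scale per 10 points. It ran the other way in 4 h replicates 1 (-0.32) and 2 (-0.10), while the 2 d libraries lay between -0.06 and 0.04. The biological coefficient of variation was 19.8% at 4 h and 10.9% at 2 d. The first principal component held 79.6% of the variance and set the groups apart, and on the second, with 14.1%, 4 h replicates 1 and 3 lay at opposite ends (21.0 and -28.7). The promyelocyte and granulocyte genes MPO, ELANE, PRTN3, AZU1, CTSG, CD33, CSF3R and ITGAM were read in all 6 libraries.

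Levels are counts scaled to the size of each library (CPM, the usual unit), given for replicates 1, 2 and 3 in that order. A difference is a log2 fold change of 2 d over 4 h from edgeR's quasi-likelihood test with n = 3 libraries per group. That test gives no SE, so the ± after a fold change is an approximate SE, derived from the fold change and test statistic. Where a group had almost no reads, as in CCL24 and OSM, this SE and the interval built on it understate counting error. A gene is said to rise or fall where its Benjamini-Hochberg adjusted p is under 0.05. In these bulk samples, fewer cells with a transcript and less of it per cell cannot be told apart. By this rule 5160 genes changed (42.6% of those tested), 2440 upward (20.1%) and 2720 downward (22.4%), and the median log2 fold change of all tested genes was -0.01. Of the calls, 2142 were of at least 2-fold (17.7%), with 1201 higher (9.91%) and 941 lower (7.76%). The 2 groups did not overlap in 6558 genes (54.1%). Shares of a gene list are read against these background shares, and a list's direction against the median of all genes. In 14 lists edgeR called 0 members in 1 direction; at an unadjusted p under 0.05 there were 0 such members too, except for 1 kinase that was lower. DESeq2 called 1 splicing regulator higher and limma-voom none, while quality weights called 1 to 4 members in 5 of these lists.

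**Figure D1:**
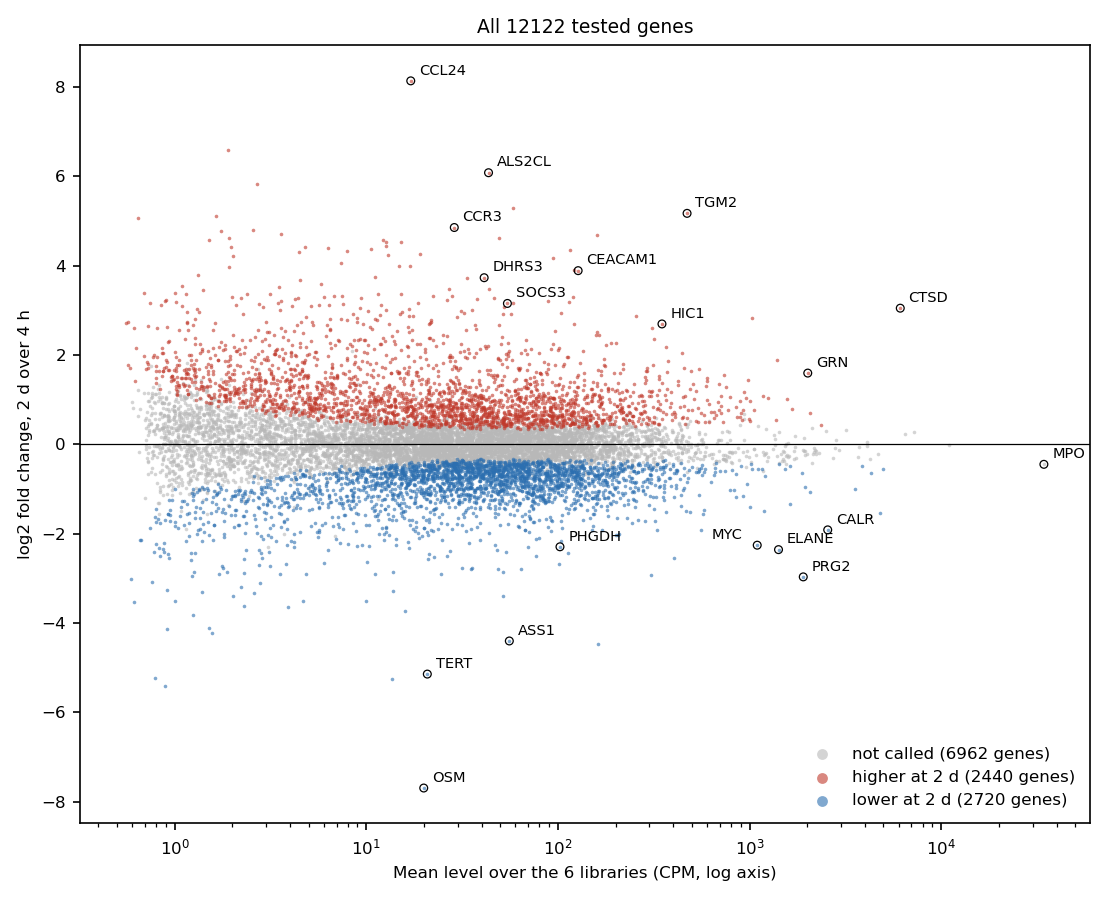
Each point is 1 of the 12122 tested genes, with its mean level over the 6 libraries in CPM (log axis) on x and its log2 fold change of 2 d over 4 h on y; circled genes are among those described in the text. Changes of at least 4-fold were found in 445 genes, and at the abundant end CTSD and GRN rose, PRG2, CALR, ELANE and MYC fell, and MPO was not called.

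The list of the retinoic acid response holds the receptors, the enzymes that make and clear the ligand, and early target genes. Of its 24 tested members 15 rose and 4 fell, with a median log2 fold change of 0.95. TGM2, tissue transglutaminase, stood at 25.1, 22.2 and 29.3 CPM at 4 h and at 1079.6, 989 and 688 CPM at 2 d, a log2 fold change of 5.17 ± 0.23 (edgeR adjusted p = 7.99e-07). DHRS3, which reduces retinaldehyde back to retinol, rose from 4.10, 5.31 and 7.86 CPM to 75.1, 75.9 and 79.1 CPM (3.73 ± 0.21). Neither gene's groups came close to overlapping.

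Further targets rose too. HIC1, a transcriptional repressor, went from 72.6, 84.9 and 123 CPM to 749.6, 516 and 549 CPM (2.69 ± 0.23). PTGES, the terminal enzyme of prostaglandin E2 synthesis, rose from a mean of 6.95 ± 1.60 to 55.4 ± 5.12 CPM (2.99 ± 0.18), and BATF2, a basic leucine zipper factor, from 2.01 ± 0.356 to 32 ± 1.94 CPM (4.00 ± 0.19). CYP26A1, the enzyme that clears retinoic acid, was low throughout and rose from 0.466, 0.655 and 0.676 CPM to 3.18, 3.95 and 1.61 CPM (2.29 ± 0.41). CD38, an ectoenzyme that breaks down NAD, moved least of these, from 80.5, 70.1 and 49.6 CPM to 136, 124 and 103 CPM (0.86 ± 0.19, edgeR adjusted p = 0.00447).

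The receptors themselves moved in different directions. RARA, the receptor isotype that dominates in myeloid cells, rose by 0.82 ± 0.20, and RARB, itself a classical target, by 2.02 ± 0.34 at a low level (0.882 ± 0.376 to 3.52 ± 0.536 CPM). RARG fell by 0.65 and RXRA, the heterodimer partner, by 1.25 on the log2 scale (from 349 ± 51.9 to 147 ± 18.8 CPM). All 4 were chosen after their values were seen. In each of them the 2 groups did not overlap, as in 54.1% of all tested genes.

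**Figure D2:**
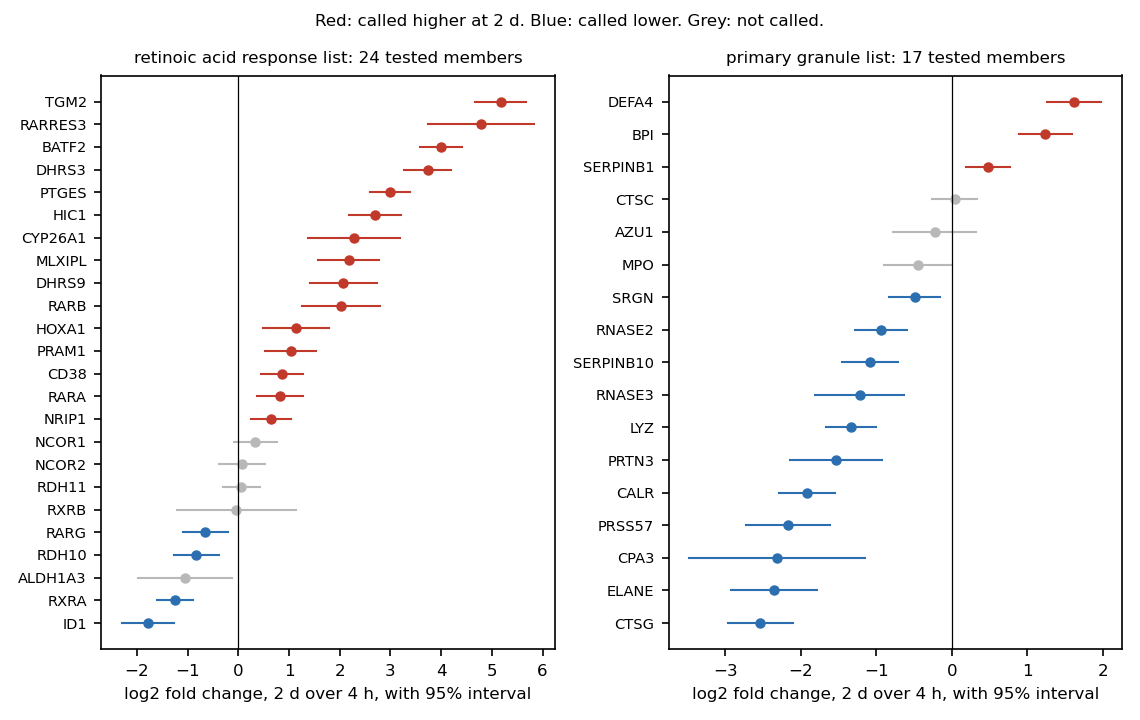
Log2 fold changes of 2 d over 4 h (x axis) with 95% intervals for the 24 tested members of the retinoic acid response list and the 17 of the primary granule list; colors mark the call. In the first list TGM2 (5.17) and ID1 (-1.78) are the ends of the range, and in the second DEFA4 (1.62) and CTSG (-2.54).

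Several transcripts that are known for fast, short responses were lower at 2 d, although more members of the immediate early list rose than fell (below). OSM, the cytokine oncostatin M, had 31.8, 39.6 and 47.8 CPM at 4 h and 0, 0.379 and 0.124 CPM at 2 d, 1 library of which held no read. Its log2 fold change of -7.69 ± 0.41 was the largest decline of any gene averaging 10 CPM or above (edgeR adjusted p = 1.35e-06). With so few reads at 2 d the size is loosely set, and the SE of 0.41 is too small. The log2 fold change was -9.32 without 2 d replicate 2 and -7.10 without 2 d replicate 1. ID1, which blocks the binding of helix-loop-helix factors to DNA, fell from 30.5, 36.5 and 55.9 CPM to 12.1, 10.1 and 13.7 CPM (-1.78 ± 0.23). EGR1, a zinc finger factor of the immediate early response, fell from 19.7, 24.7 and 26 CPM to 4.38, 4.55 and 5.94 CPM (-2.26 ± 0.19), and FOS, a subunit of AP-1, fell as well (-1.22 ± 0.14).

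In the list of immediate early genes and feedback regulators 16 of 38 tested members rose (42.1%, against 20.1% of all tested genes). Only 6 fell (15.8%, under the background of 22.4%), and the median was 0.49. SOCS3, which blocks cytokine receptor signaling, rose from 8.75, 11.4 and 12.8 CPM to 116, 86.1 and 92 CPM (3.15 ± 0.19), and the MAP kinase phosphatase DUSP6, chosen after its value was seen, by 1.56 ± 0.13. DUSP2, another such phosphatase, fell (-2.20 ± 0.21). Among cytokines and chemokines 7 of 23 rose (30.4%) and 4 fell (17.4%, under the background). The count that rose was 12 with quality weights and 11 with offsets for GC content and length. TNF fell from 2.18 ± 0.236 to 0.285 ± 0.0756 CPM, CXCL8 from 71 ± 12 to 31 ± 4.16 CPM (the latter chosen after its value was seen), and CXCL16 and CCL22 rose by 3.29 ± 0.30 and 3.08 ± 0.48 (CCL22 by 3.79 without 4 h replicate 3). CCL2 was not called at 0.41 ± 0.16 (edgeR adjusted p = 0.0604). It was called higher without 4 h replicate 3 or 2 d replicate 1, with DESeq2, library totals alone, quality weights, or offsets for GC content and length, with values from 0.43 to 0.63.

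**Figure D3:**
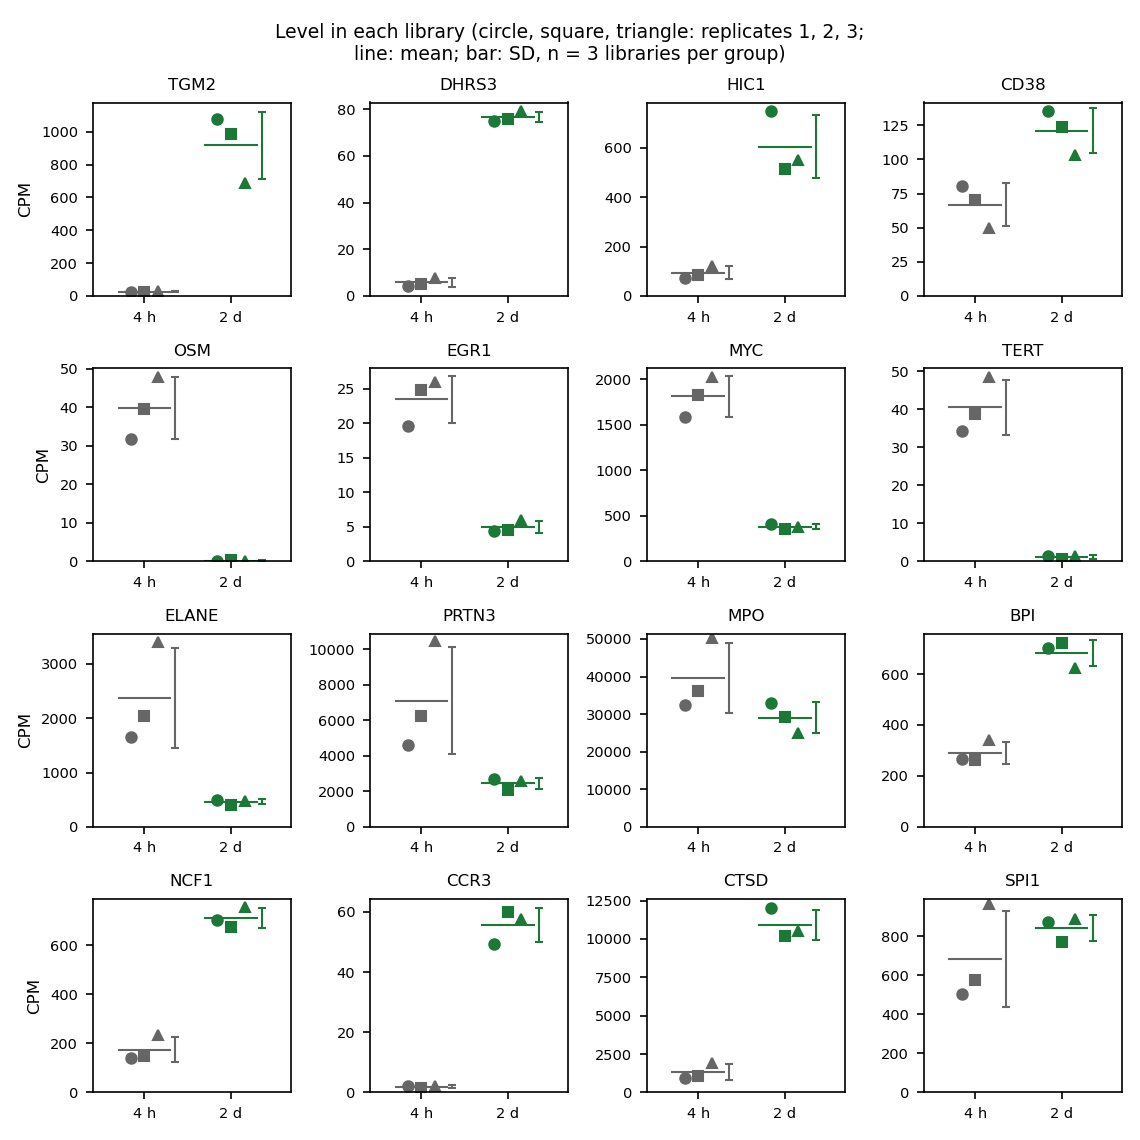
Level in CPM (y axis, linear and from 0) of 16 genes in each library at 4 h and 2 d; symbols mark replicates, lines the mean and bars the SD of 3 libraries. The groups are apart in every panel except MPO and SPI1, and 4 h replicate 3 is the highest 4 h library in every panel except CD38.

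The primary granule list divided. These are mostly the antimicrobial and proteolytic proteins of the promyelocyte, and 11 of 17 tested members fell, 3 rose and 3 were not called (median -1.08). Those that fell include CALR, a chaperone of the endoplasmic reticulum that the list also holds. The serine protease ELANE, neutrophil elastase, stood at 1660.0, 2044 and 3406 CPM and fell to 492, 412 and 485 CPM (-2.36 ± 0.26). CTSG, cathepsin G, fell from 549.7, 637 and 877 CPM to 117, 126 and 112 CPM (-2.54 ± 0.19), and PRTN3, proteinase 3, from 4629, 6226 and 10459 CPM to 2674, 2062 and 2598 CPM (-1.54 ± 0.27). In all 3 the 2 d libraries lay close together, and 4 h replicate 3 was the highest.

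MPO, myeloperoxidase, had 32525, 36195 and 50186 CPM at 4 h and 33033, 29299 and 24908 CPM at 2 d. The groups overlapped, and its log2 fold change of -0.45 ± 0.21 had a 95% interval of -0.90 to 0.01 (edgeR adjusted p = 0.105). It was called lower with library totals alone (-0.38, edgeR adjusted p = 0.0314), with quality weights (-0.32, limma adjusted p = 0.0161) and with offsets for GC content and length (-0.62, edgeR adjusted p = 0.000521), and not in the other settings run. AZU1, azurocidin, whose gene lies beside those of PRTN3 and ELANE, was not called either at -0.23 ± 0.25; its direction rested on 4 h replicate 3, without which it was 0.13, and with offsets for GC content and length it was called lower (-0.36). BPI, which binds bacterial lipopolysaccharide, rose from 267, 263 and 339.6 CPM to 701, 723 and 625 CPM (1.24 ± 0.16), and DEFA4, a defensin, from 38.5, 42 and 47.5 CPM to 107, 148 and 139.7 CPM (1.62 ± 0.16). Both were chosen after their values were seen.

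Genes of the later granules were mostly higher: 15 of 24 tested members rose and 3 fell (median 0.89). CEACAM1, an adhesion and inhibitory receptor stored in granules, went from 17.4, 16.4 and 14.6 CPM to 228, 246 and 243 CPM (3.89 ± 0.15). MMP8, neutrophil collagenase, rose from 4.14 ± 0.954 to 19.8 ± 3.67 CPM (2.25 ± 0.22), and ORM1, orosomucoid, from 17.7 ± 4.79 to 83.8 ± 7.76 CPM (2.25 ± 0.19). The defining secondary granule genes LTF, lactoferrin, and CAMP, the cathelicidin precursor, were not called: LTF had 8.75, 8.08 and 11.3 CPM and then 10.7, 11.5 and 8.16 CPM, and CAMP a log2 fold change of -0.18 ± 0.29. Their groups overlapped. Both were chosen after their values were seen.

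The NADPH oxidase makes superoxide from an electron-transporting membrane core and cytosolic subunits that join it on activation. Of 12 tested members 8 rose and 0 fell (median 0.71). Those that rose include VAV1 (0.98 ± 0.14), which is in the list but is not a subunit. The catalytic membrane subunit CYBB rose from 275, 244 and 204 CPM to 794, 801 and 664 CPM (1.64 ± 0.16). The cytosolic subunit NCF1 rose from 140.0, 149 and 233 CPM to 704, 676 and 758 CPM (2.03 ± 0.21). NCF1 has near-identical pseudogenes, so the reads assigned to it are uncertain. CYBA, the other membrane subunit, chosen after its value was seen, was not called at 0.68 ± 0.28 (edgeR adjusted p = 0.077), with 4 h values of 438, 608 and 1102 CPM that overlapped those of 2 d.

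In the adhesion list 10 of 23 tested members rose, 2 fell and 11 were not called (median 0.33). Without 2 d replicate 2, 1 fell, and with quality weights 16 rose and 4 fell. ITGAM, the alpha chain of CD11b/CD18, rose from 36, 35.2 and 40.8 CPM to 169, 162 and 153 CPM (2.11 ± 0.13), its beta chain ITGB2 from 598 ± 158 to 2201 ± 242 CPM (1.88 ± 0.20), and ITGAX, CD11c, from 11 ± 1.26 to 93 ± 22.3 CPM (3.07 ± 0.20). Of the chemoattractant receptors 17 of 22 rose and 1 fell, with a median of 1.00. CCR3, the eotaxin receptor, went from 2.24, 1.31 and 2.28 CPM to 49.3, 60 and 57.6 CPM (4.85 ± 0.21). FFAR2, which senses short-chain fatty acids, rose by 3.28 ± 0.19. S1PR3, a sphingosine 1-phosphate receptor, was the 1 that fell, from 20, 18.2 and 17 CPM to 1.89, 1.82 and 0.989 CPM (-3.50 ± 0.23).

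Receptors that take up or sense targets were mostly higher. Of the Fc and complement receptors 11 of 14 rose and 0 fell (median 1.08). CR1, complement receptor 1, led them, from 6.05, 4.88 and 4.40 CPM to 53.8, 45.2 and 44.1 CPM (3.23 ± 0.17). Those that rose include CFP, properdin (2.87 ± 0.25), a complement protein in the list that is not a receptor. Of the pattern and inhibitory receptors 27 of 38 rose and 1 fell (median 1.18). LILRB2, an inhibitory receptor for class I molecules, rose from 8.85, 11.5 and 15 CPM to 96.2, 102 and 118 CPM (3.15 ± 0.20), and LILRA3 and LILRA5 rose by 2.92 and 2.67. The LILR genes are close copies of one another, so reads may be split between them. The fall was in TLR9, a sensor of unmethylated DNA, from 16 ± 3.40 to 6.05 ± 1.31 CPM (-1.38 ± 0.22). FCER1G, an adaptor chain for activating Fc receptors, rose by 1.88 ± 0.15.

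Of the cytokine receptors 18 of 31 rose and 6 fell (median 0.90); the count of those that fell was between 1 and 3 without any 1 library other than 4 h replicate 3. CSF3R, the receptor of the neutrophil growth factor G-CSF, chosen after its value was seen, rose from 254, 291 and 404 CPM to 903, 818 and 918 CPM (1.48 ± 0.19), and CSF1R, that of macrophage colony-stimulating factor, from 2.60 ± 0.498 to 16.7 ± 2.11 CPM (2.69 ± 0.21). Of the myeloid signaling kinases and adaptors 28 of 41 rose and 0 fell, with a median of 0.82. PRKCB, a protein kinase C, went from 78.1, 76.6 and 64.5 CPM to 317, 276 and 235 CPM (1.92 ± 0.16), PIK3CG, the PI3-kinase of G protein-coupled receptors, rose by 1.79 ± 0.21, and RASGRP4, a Ras activator, by 2.42 ± 0.20. Several central kinases stayed uncalled, among them SYK at 0.18 and BTK at 0.16, chosen after their values were seen.

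Of the myeloid transcription factors 19 of 47 rose (40.4%) and 11 fell (23.4%, near the background of 22.4%), with a median of 0.34. Without 2 d replicate 3, 7 fell. SPI1, which encodes PU.1, was not called: it had 505, 578 and 964 CPM at 4 h and 872, 768 and 887 CPM at 2 d (0.30 ± 0.23). Without 4 h replicate 3, its highest library, it was called at 0.64, and with quality weights at 0.51. CEBPB rose from 114, 130.1 and 145 CPM to 293, 254 and 315 CPM (1.15 ± 0.15). CEBPE, the C/EBP member needed for secondary granules, rose by 0.70 ± 0.22 (edgeR adjusted p = 0.0275), a call that was lost on leaving out any 1 library other than 4 h replicate 3 (edgeR adjusted p from 0.0579 to 0.109). CEBPA was not called at -0.59 ± 0.23 (edgeR adjusted p = 0.0667). It was called lower without 4 h replicate 1 (-0.74) or 2 d replicate 1 (-0.80), and with DESeq2, library totals alone, quality weights, no filter, all 12 libraries in the fit, or offsets for GC content and length (-0.50 to -0.88). GFI1 rose by 0.46 ± 0.15, a call that did not hold without 4 h replicate 1 or 2 or 2 d replicate 1 or 2, without a filter, or with offsets for GC content and length (0.21, edgeR adjusted p = 0.0821).

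Of 21 tested progenitor factors 10 fell and 2 rose (median -0.26), and 1 rose without 2 d replicate 1 or without 2 d replicate 3. MYC, which drives growth and is amplified in HL-60 cells, fell from 1580.4, 1831 and 2029.8 CPM to 406, 352 and 381 CPM (-2.26 ± 0.16, edgeR adjusted p = 5.94e-06). TERT, the catalytic subunit of telomerase, fell from 34.3, 38.7 and 48.4 CPM to 1.37, 0.683 and 1.48 CPM (-5.14 ± 0.26). WT1 fell by 2.63 and GATA2 by 1.89, and MYB, a factor of proliferating progenitors, from 208 ± 17.5 to 132 ± 7.11 CPM (-0.65 ± 0.13). In the network of MYC's partners and antagonists 4 of 12 rose and 2 fell, counts that were each between 1 and 6 over the alternatives run. MXD3, an antagonist of the family, rose by 1.08 ± 0.25, a call that was lost with all 12 libraries in the fit (edgeR adjusted p = 0.0623).

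The labels name no interferon treatment. Of 61 tested interferon-stimulated genes 39 rose and 1 fell, with a median of 0.89. MX2, which blocks retroviral nuclear import, rose from 2.89, 3.13 and 2.37 CPM to 20.6, 20.9 and 21.1 CPM (2.89 ± 0.18), IFI6 from 2.05, 2.40 and 3.89 CPM to 16.8, 18.7 and 23.1 CPM (2.80 ± 0.25), and OAS3, a sensor that makes oligoadenylate, from 5.12, 5.09 and 3.55 CPM to 35.1, 25.7 and 24.6 CPM (2.63 ± 0.21). Among the factors of the pathway IRF7 rose by 1.54 ± 0.16 and STAT2 by 1.44 ± 0.14, both chosen after their values were seen. ISG15, the ubiquitin-like product often used as a marker of the response, was not called, at 7.17, 5.60 and 10.6 CPM and 7.82, 8.88 and 9.52 CPM (0.17 ± 0.24); it too was chosen after its values were seen. The 1 member that fell was LAP3, an aminopeptidase, by 0.94 on the log2 scale, and 2 fell without 4 h replicate 2, 2 d replicate 1 or 2 d replicate 3.

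The element through which the interferon factors bind is the interferon-stimulated response element, searched here on both strands as GAAA, any 2 bases and GAAA in the 250 bases before the gene start (RefSeq, GRCh38.p14). It was present in 19 of the 48 tested members that had a promoter in the table (39.6%) and in 11 of the 30 of them that were called higher (36.7%), against 2.33% of the 9665 tested genes with a promoter and 3.07% of all 27305 promoters. A match is a description and not a bound site. The promoter stretches below show it in capitals for the members with the largest changes that hold it, with IFI6 at chr1:27672241-27672320 (minus strand) and OAS3 at chr12:112938394-112938473 (plus strand), written 5′ to 3′ on the gene's strand.
IFI6: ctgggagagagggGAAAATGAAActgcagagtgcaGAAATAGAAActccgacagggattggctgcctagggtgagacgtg
OAS3: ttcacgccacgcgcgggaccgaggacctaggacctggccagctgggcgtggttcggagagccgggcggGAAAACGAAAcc

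Class I antigen presentation rose in part. Of 19 tested members 11 rose and 3 fell, although the count of those that rose was 6 without 4 h replicate 2 or without 2 d replicate 1. HLA-C rose from 834, 937 and 1360.5 CPM to 2277, 2086 and 1948 CPM (1.01 ± 0.20), and the 3 that fell, CALR, CANX and PDIA3, are chaperones of the endoplasmic reticulum. TAPBP, tapasin, was called at 2.26 ± 0.58, but 2 d replicate 2 stood apart in it (2 d values of 6.01, 28.6 and 5.94 CPM), and without that library it was 1.05. Reads of the HLA genes may be split between related copies. Of the class II pathway 4 of 8 rose and 0 fell, and 2 rose without 2 d replicate 2; CD74, the invariant chain, went from 6.19 ± 2.18 to 12 ± 0.293 CPM.

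Of 52 tested lysosomal genes 33 rose and 1 fell, with a median of 0.83, and 2 fell without 4 h replicate 1. CTSD, the aspartic protease cathepsin D, rose from 946, 1092 and 1923 CPM to 12039.8, 10211 and 10494 CPM (3.05 ± 0.27), and GRN, the precursor of granulins, from 711, 865 and 1427 CPM to 3494, 2808 and 2772 CPM (1.60 ± 0.25). SGSH, a heparan sulfatase, rose by 2.70 ± 0.19, GAA, acid alpha-glucosidase, by 2.13 ± 0.18, and CD68, a glycoprotein of the lysosomal membrane, by 2.44 ± 0.17. TFEB, the factor that drives lysosomal genes, chosen after its value was seen, rose from 11.1, 11.1 and 18.1 CPM to 59.1, 53.4 and 54.7 CPM (2.05 ± 0.19). LIPA, acid lipase, fell from 22.6 ± 1.76 to 7.73 ± 0.323 CPM. Of the autophagy genes 6 of 31 rose and 2 fell, near or under the background shares, with a median of -0.04. The count that fell was 5 without 4 h replicate 3, 1 without any other single library, and 6 with quality weights.

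The E-box CACGTG, a palindrome that factors of the TFEB family and of the MYC family both bind, was in the promoters of 9 of the 34 tested lysosomal members that had one (26.5%) and of 5 of the 21 of them that were called higher (23.8%). It was in 9.24% of all tested genes with a promoter and 6.49% of all promoters. Among the ribosome biogenesis genes, described next, it was in 8 of 56 tested members (14.3%) and in 7 of the 50 called lower (14%). The stretches show the E-box in capitals in CTSD (chr11:1763932-1764011, minus strand) and GAA (chr17:80101501-80101580, plus strand), both higher and chosen after their values were seen, and in EBNA1BP2 (chr1:43172741-43172820, minus strand), which fell.
CTSD: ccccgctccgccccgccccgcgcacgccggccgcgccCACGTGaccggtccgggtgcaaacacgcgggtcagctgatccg
GAA: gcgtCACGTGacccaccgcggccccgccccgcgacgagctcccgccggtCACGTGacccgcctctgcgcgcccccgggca
EBNA1BP2: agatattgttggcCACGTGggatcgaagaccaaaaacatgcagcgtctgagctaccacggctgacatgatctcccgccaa

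Of the eicosanoid enzymes 10 of 17 rose and 4 fell (median 0.83), and the count of those that fell was 2 without 4 h replicate 2 or without 2 d replicate 1. PTGS1, cyclooxygenase 1, rose from 44.9, 47.7 and 49.9 CPM to 279.8, 271 and 266 CPM (2.52 ± 0.13), and CYP4F3, which inactivates leukotriene B4, from 13.6, 15.3 and 7.35 CPM to 99.7, 86.4 and 89.2 CPM (2.92 ± 0.23). ALOX5AP, the helper of 5-lipoxygenase, chosen after its value was seen, rose by 1.69 ± 0.16, and MGST1, a microsomal glutathione transferase, fell (-1.71 ± 0.14). Within cholesterol synthesis and uptake 9 of 36 rose and 6 fell, close to the background. ABCA1, the cholesterol exporter, rose by 3.74 ± 0.41 (4.51 without 4 h replicate 1) and SREBF1 by 2.22 ± 0.23.

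Genes of the machinery of growth were lower. Of 65 ribosome biogenesis genes 59 fell and 0 rose, with a median log2 fold change of -1.09. Of 74 mitochondrial ribosomal proteins 63 fell and 0 rose (median -0.81), of 75 respiratory chain genes 57 fell and 0 rose (-0.67), and of 23 aminoacyl-tRNA synthetase genes 19 fell and 0 rose (-0.92). Of 31 proteasome genes 29 fell and 0 rose (-0.78). Against the 22.4% of all tested genes that fell, these shares run from 76.0% to 93.5%.

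**Figure D4:**
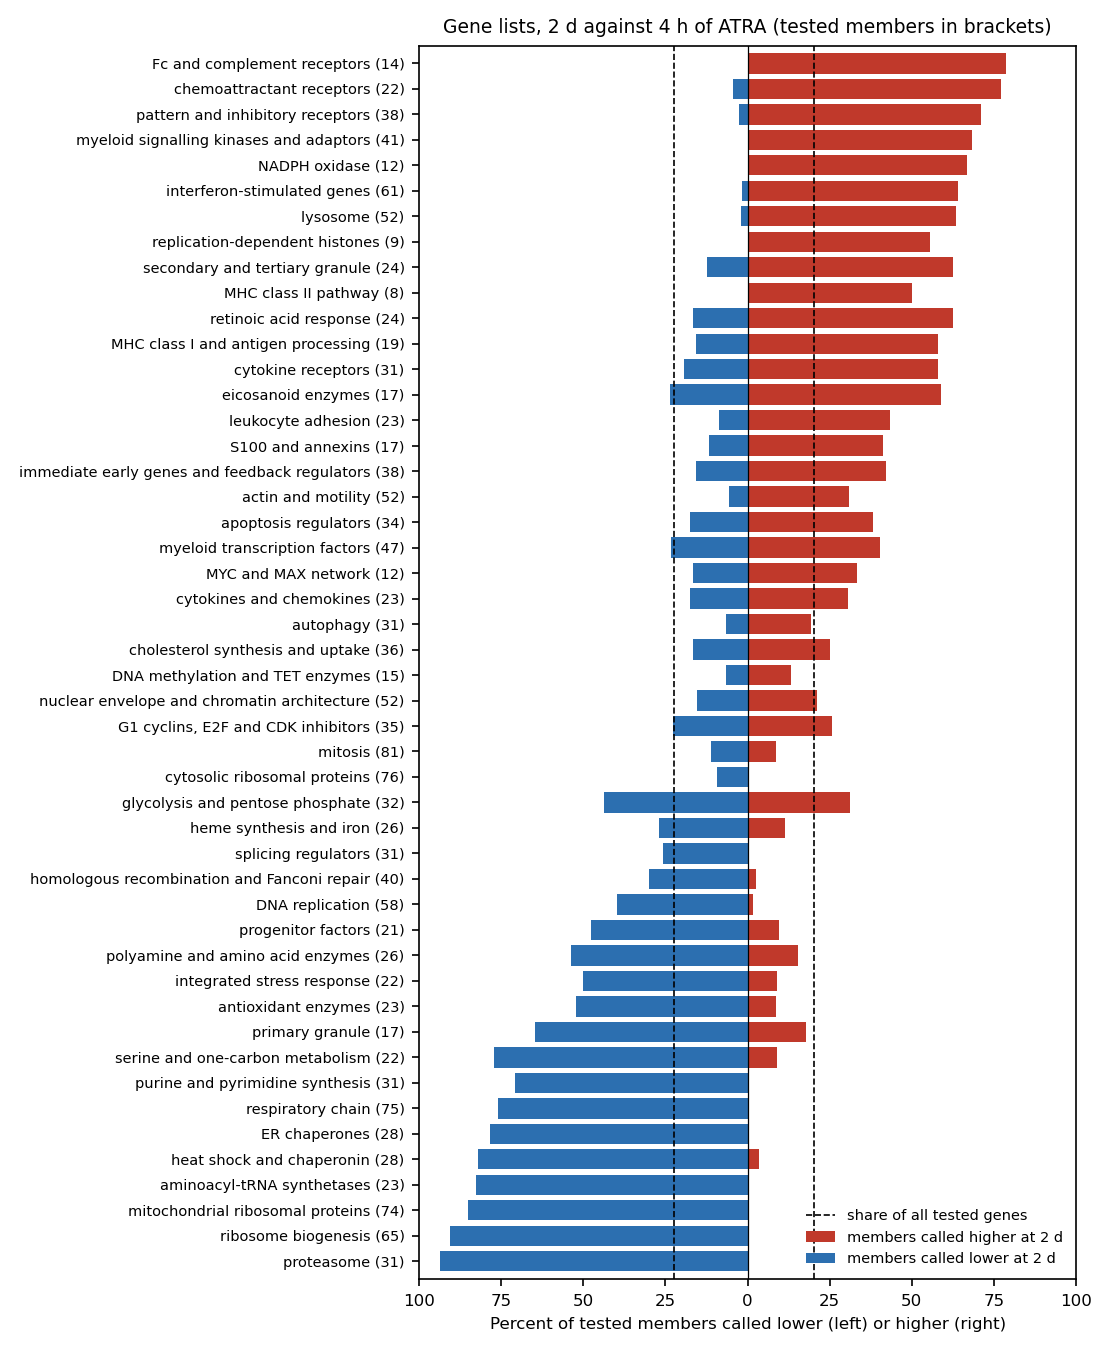
Percent of the tested members of 48 gene lists called higher (right) or lower (left) at 2 d, with the number tested in brackets; dashed lines mark the shares of all tested genes, 20.1% higher and 22.4% lower. Receptor, kinase, oxidase, interferon and lysosome lists sit at the top, and proteasome, ribosome biogenesis and mitochondrial ribosome lists at the bottom with no member called higher.

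In ribosome biogenesis, PNO1, which helps mature the small subunit, fell from 37.4, 34.6 and 40.2 CPM to 11.7, 10.9 and 7.54 CPM (-1.89 ± 0.17), EBNA1BP2, a large subunit factor, from 122, 141 and 156 CPM to 37.4, 40.4 and 38 CPM (-1.86 ± 0.14), and the nucleolar zinc finger protein LYAR from 77.8 ± 2.98 to 22.4 ± 1.04 CPM (-1.80 ± 0.12). The subunits of RNA polymerase I in the list fell too, POLR1B by 1.35 and POLR1E by 1.27, and so did the nucleolar proteins NPM1 and NCL (by 1.40 and 1.15), all 4 chosen after their values were seen. The members that were not called were IMP3, UBTF, UTP3, TAF1D, GNL3L and NOP10. The ribosomal proteins themselves, of which 7 of 76 fell (9.21%, under the background) and 0 rose, had a median of -0.21. Leaving out 1 library at a time gave counts of those that fell between 2 and 15, without 4 h replicate 2 or 2 d replicate 1 at the low end and without 4 h replicate 1 at the high end. RPS26, which has many processed copies in the genome, fell (-1.24 ± 0.18), and RPL3, chosen after its value was seen, was at -0.05 ± 0.18.

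Among the mitochondrial ribosomal proteins MRPL3 went from 183, 179.7 and 167 CPM to 65.7, 62.5 and 66 CPM (-1.45 ± 0.13), and MRPL1 from 33.8 ± 3.46 to 12.6 ± 1.72 CPM (-1.42 ± 0.16). In the respiratory chain ATP5G1, a subunit of the ATP synthase ring, fell from 238, 248 and 343 CPM to 87.6, 93.8 and 92.1 CPM (-1.60 ± 0.17), and NDUFAB1, the acyl carrier protein of complex I, fell too (-1.37 ± 0.14). Among the synthetases IARS fell from 237, 222 and 202 CPM to 85, 84.2 and 82.2 CPM (-1.39 ± 0.13) and EEF1E1, a scaffold of the synthetase complex, fell too (-1.54 ± 0.24). Of the proteasome, PSMA6 fell from 226, 231 and 268 CPM to 98.4, 114 and 103 CPM (-1.20 ± 0.14), and PSMC2 and PSMD4 were the members not called.

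Genes of protein folding were lower as well. Of 28 heat shock and chaperonin genes 23 fell and 1 rose (median -1.02), and of 28 chaperones and stress genes of the endoplasmic reticulum 22 fell and 0 rose (median -0.90). CALR, calreticulin, fell from 3536, 3952 and 4642 CPM to 1057, 1177 and 986 CPM (-1.91 ± 0.17), and HSPE1 and FKBP4 fell (-2.05 ± 0.26 and -1.91 ± 0.15). All 8 chaperonin subunits in the list fell, by 0.84 (TCP1) to 1.33 (CCT2 and CCT3). XBP1, which drives secretory genes, chosen after its value was seen, fell from 247 ± 19.6 to 107 ± 5.31 CPM (-1.20 ± 0.13). HSPA6, a heat-inducible chaperone at a low level, was the 1 that rose (0.881 ± 0.328 to 3.69 ± 0.687 CPM).

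Of 22 genes of serine and one-carbon metabolism 17 fell and 2 rose (median -0.95). PHGDH and PSAT1, the first steps of serine synthesis, fell from 136, 154 and 221 CPM to 33.8, 37.2 and 33.3 CPM (-2.29 ± 0.19) and from 124, 113 and 112 CPM to 24.7, 24.2 and 22.4 CPM (-2.29 ± 0.13). GCSH, of the glycine cleavage system, fell (-2.51 ± 0.15), while AMT of the same system, chosen after its value was seen, rose by 1.40 ± 0.23. Of the purine and pyrimidine genes 22 of 31 fell and 0 rose (median -0.80), led by NME1 (-2.13 ± 0.23) and PAICS, from 307 ± 6.50 to 98.1 ± 4.57 CPM (-1.65 ± 0.13).

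ASS1, argininosuccinate synthase, fell from 86.1, 99.2 and 134 CPM to 5.07, 4.78 and 5.32 CPM (-4.40 ± 0.21), the largest fall of the polyamine and amino acid list, where 14 of 26 fell and 4 rose. ASNS, asparagine synthetase, fell (-2.79 ± 0.16). In the integrated stress response, which controls several of these genes, 11 of 22 fell and 2 rose; CHAC1 fell from 4.98 ± 1.42 to 0.568 ± 0.0633 CPM and its regulator ATF4, chosen after its value was seen, fell too (-0.51 ± 0.16). The share of promoters with a C/EBP-ATF element (TGATGNAA, both strands) was 6.25% of the 16 tested serine and one-carbon genes with a promoter, 12.5% of the 16 tested synthetases with one, and 1.32% of all tested genes with a promoter. Those shares of the lists are 1 and 2 promoters.

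Glycolysis was mixed. Of 32 tested genes 14 fell and 10 rose (median -0.25), and the count of those that fell was 6 to 8 without 4 h replicate 2 or any 1 of the 2 d libraries. LDHA, lactate dehydrogenase A, fell from 685 ± 44.4 to 243 ± 12.3 CPM (-1.50 ± 0.14), and the lactate carrier SLC16A1 fell too (-1.92 ± 0.16). HK3, the hexokinase of myeloid cells, rose from 51.8, 62.7 and 93.4 CPM to 331, 332 and 339 CPM (2.27 ± 0.21), SLC2A5, a fructose carrier, by 1.63 ± 0.17, and PGD, which makes NADPH in the pentose phosphate pathway, from 390.0 ± 51.6 to 994 ± 54.8 CPM (1.35 ± 0.15). LDHA and PGD were chosen after their values were seen. Among antioxidant enzymes 12 of 23 fell and 2 rose, and PRDX1, peroxiredoxin 1, fell from 168, 193 and 212 CPM to 33.9, 38.7 and 33.9 CPM (-2.43 ± 0.15).

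**Figure D5:**
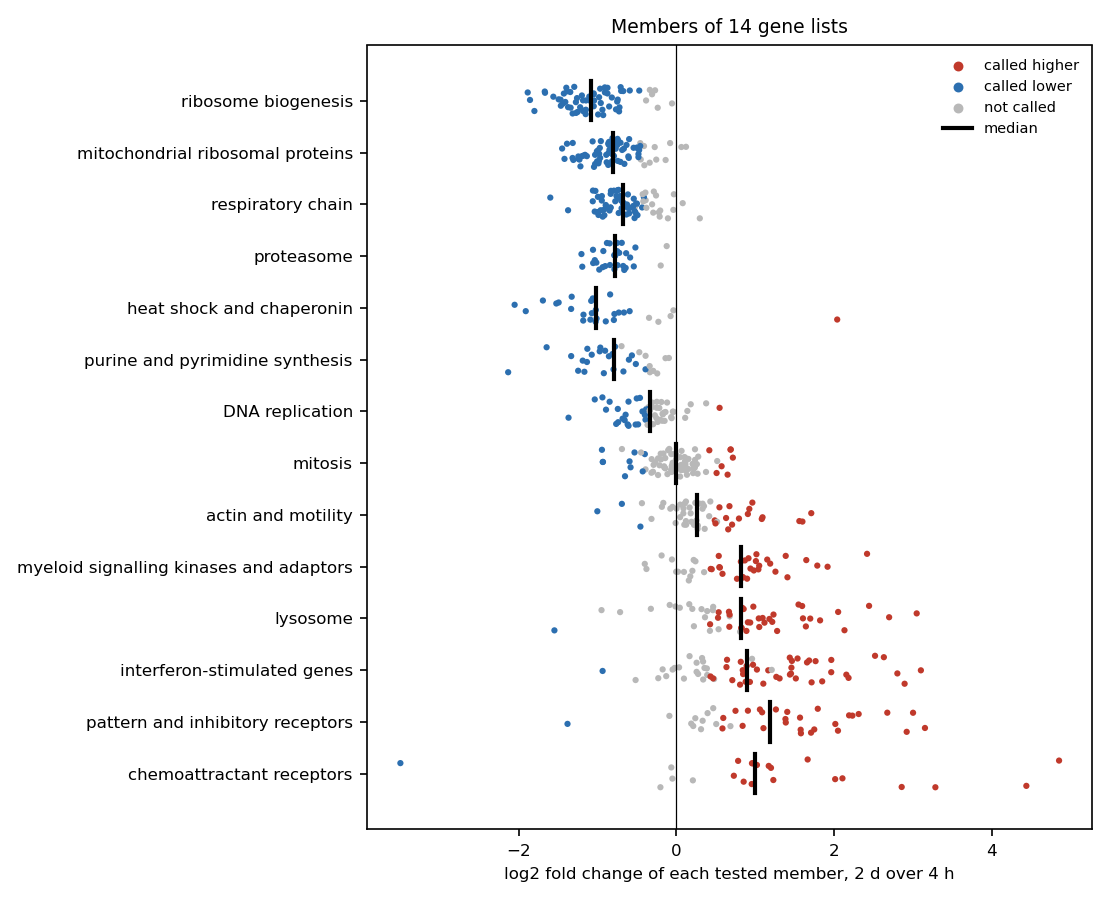
Log2 fold change of 2 d over 4 h (x axis) of every tested member of 14 gene lists, colored by call, with the median of each list as a black line. The medians of the 6 lists from ribosome biogenesis to purine and pyrimidine synthesis lie between -0.67 and -1.09, that of mitosis is -0.01, and those of the receptor, kinase, interferon and lysosome lists lie between 0.82 and 1.18.

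Of 81 tested mitosis genes 7 rose and 9 fell, shares of 8.64% and 11.1% that are under the background, with a median of -0.01. MKI67, the proliferation marker, chosen after its value was seen, rose from 349, 322 and 272 CPM to 588, 464 and 469 CPM (0.69 ± 0.16). CDC25C, a phosphatase that starts mitosis, rose by 0.72 ± 0.17, whereas MAD2L1, of the spindle checkpoint, fell from 106, 107 and 98.3 CPM to 51.5, 61.5 and 50.3 CPM (-0.93 ± 0.13) and CENPW, of the kinetochore, fell too (-0.94 ± 0.15). CDK1 and TOP2A, chosen after their values were seen, were not called at -0.20 ± 0.13 and 0.23 ± 0.20. The counts depended on the libraries and settings: 5 fell without 4 h replicate 2, 2 d replicate 1 or 2 d replicate 3, and with offsets for GC content and length 22 rose.

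Of 58 tested DNA replication genes 23 fell, 1 rose and 34 were not called, with a median of -0.33, and 2 of those that fell did so by at least 2-fold. POLD2, a subunit of DNA polymerase delta, fell from 323, 382 and 582 CPM to 168, 159 and 172 CPM (-1.37 ± 0.21), and CDC6, which loads the replicative helicase, from 66.1, 65.7 and 69.5 CPM to 34.3, 36.2 and 38.1 CPM (-0.89 ± 0.12). Of the 6 helicase subunits MCM6, MCM4 and MCM3 fell, by 0.61, 0.46 and 0.38, and MCM2, MCM5 and MCM7 were not called; these were chosen after their values were seen. The count of members that fell was 14 without 4 h replicate 2, 15 without 2 d replicate 3 and 35 without 4 h replicate 3, and leaving out 1 library at a time gave from 0 to 2 that rose. Of the homologous recombination and Fanconi genes 12 of 40 fell and 1 rose, and 6 or 7 fell without 4 h replicate 2 or any 1 of the 2 d libraries. The count that rose was 3 without 4 h replicate 3, 0 without any other single library, and 7 with offsets for GC content and length.

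Around the decision to enter the cycle, 9 of 35 genes rose and 8 fell, close to the background. CDK6 fell from 211, 188 and 137 CPM to 76.2, 60.6 and 62.3 CPM (-1.43 ± 0.18), while the inhibitor of CDK4 and CDK6, CDKN2C, rose from 69.8, 66.1 and 83 CPM to 194, 182 and 159.9 CPM (1.29 ± 0.15). BTG1, an antiproliferative gene, rose from 80.3, 79.9 and 80.7 CPM to 270.1, 252 and 289 CPM (1.75 ± 0.13). The 2 groups did not overlap in any of these genes, as in 54.1% of all tested genes.

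Cell cycle promoters were searched for 2 elements on both strands. E2F sites (TTTCGCGC or TTTGGCGC) were in 6 of the 51 tested DNA replication genes with a promoter in the table (11.8%) and in 3 of the 18 of them that fell (16.7%), against 1.81% of tested genes with a promoter and 0.996% of all promoters. The cell cycle homology region (TTTGAA or TTCGAA) was in 31 of 69 mitosis genes (44.9%), against 9.62% of tested genes with a promoter and 14.6% of all promoters. CCAAT boxes were in 66.7% of those mitosis promoters and in 35.3% of the tested genes. The stretches show the E2F site of DTL (chr1:212035668-212035747, plus strand), a substrate receptor that fell by 0.62 on the log2 scale, and both matches of the homology region in MKI67 (chr10:128126424-128126503, minus strand).
DTL: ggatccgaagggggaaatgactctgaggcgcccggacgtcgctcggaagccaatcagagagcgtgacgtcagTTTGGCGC
MKI67: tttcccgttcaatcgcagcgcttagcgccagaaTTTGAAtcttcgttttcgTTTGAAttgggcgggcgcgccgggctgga

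Nuclear and cytoskeletal genes showed scattered changes. Of 52 nuclear envelope and chromatin genes 11 rose and 8 fell, near the background. The count that fell was 14 without 4 h replicate 3 and 3 to 5 without 4 h replicate 2 or any 1 of the 2 d libraries. With quality weights 17 rose and 16 fell, and with offsets for GC content and length 19 rose. H1F0, the linker histone of differentiated cells, rose from 2.61, 2.77 and 3.38 CPM to 18.3, 20 and 15.3 CPM (2.62 ± 0.20), and PADI4, which citrullinates histones, from 56.8 ± 8.82 to 144 ± 6.32 CPM (1.34 ± 0.15). LBR, the lamin B receptor that shapes the neutrophil nucleus, rose by 0.60 ± 0.18 and LMNB1, lamin B1, fell (-0.41 ± 0.14); the first call was lost without 4 h replicate 2, 2 d replicate 1 or 2 d replicate 2, and the second without any 1 library other than 4 h replicate 3, without a filter, with library totals alone or with all 12 libraries in the fit. Of 52 actin and motility genes 16 rose and 3 fell (median 0.26), and 29 rose without 4 h replicate 3. PLEK, pleckstrin, the platelet and leukocyte C kinase substrate, rose from 209.8, 215 and 218 CPM to 699, 717 and 688 CPM (1.71 ± 0.13), and LSP1, which binds F-actin in leukocytes, from 286, 332 and 495 CPM to 1112, 1078 and 1091 CPM (1.56 ± 0.20).

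Of the survival genes 13 of 34 rose and 6 fell. BCL2A1, an antiapoptotic gene of myeloid cells, rose from 11.5, 9.39 and 11.5 CPM to 43.6, 53.4 and 57.3 CPM (2.25 ± 0.16), and BCL2, chosen after its value was seen, fell from 55.2, 54.4 and 45.6 CPM to 22.9, 21.6 and 18.3 CPM (-1.30 ± 0.14). PMAIP1 and BBC3, which promote apoptosis, rose by 1.46 ± 0.16 and 1.36 ± 0.26. Among heme and iron genes 7 of 26 fell (26.9%, near the background of 22.4%) and 3 rose (7 rose without 4 h replicate 3). ALAS1, the first step of heme synthesis, rose by 1.18 ± 0.14. TFRC, the transferrin receptor, fell from 428, 383 and 313 CPM to 203, 189.9 and 149.7 CPM (-1.05 ± 0.17).

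Markers of other lineages moved too, and their part in the results above was not tested. Of 19 monocyte and macrophage markers 9 were tested, and 7 of these rose and 1 fell. Their summed level ran from 2342 to 2485 CPM at 4 h and from 1228 to 1435 CPM at 2 d, most of which was LYZ, lysozyme, which neutrophils also make (2328 ± 84 to 919 ± 98 CPM). MRC1 had no read, and CD163, MS4A7, FCGR3A, CX3CR1, C1QA, C1QB and SIGLEC1 stayed under 1 CPM in all 6 libraries. CD14 was not called at 0.40 ± 0.25 and CD68 rose as given above. Of 19 eosinophil, basophil and mast cell markers 11 were tested, 2 rose (1 without 4 h replicate 2 or without 2 d replicate 2) and 5 fell, and their sum went from between 2898 and 4812 CPM to between 660 and 777 CPM. PRG2, eosinophil major basic protein, made up most of it and fell from 2604, 3119.5 and 4421 CPM to 381, 468 and 449 CPM (-2.97 ± 0.22), while CCR3, of the same list, rose.

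Erythroid and megakaryocyte markers summed to between 33.2 and 50.1 CPM at 4 h and between 38.4 and 41.0 CPM at 2 d. Of 5 tested 1 rose and 1 fell, with 0 higher without any 1 library other than 4 h replicate 3 and 0 lower without 4 h replicate 2, 2 d replicate 2 or 2 d replicate 3, and HBA1, HBA2, HBG1 and HBG2 had no read. Of the lymphoid markers 7 of 20 were tested, 4 rose and 1 fell, and the sum went from between 329 and 450 CPM to between 572 and 662 CPM. CD4, which monocytes also carry, held most of it (310.0 ± 47.3 to 556 ± 50.8 CPM), and CD2 had no read. The lymphoid member that fell was IGLL1, a surrogate light chain, from 23.2, 21.5 and 35.4 CPM to 0.344, 1.14 and 0.495 CPM (-5.25 ± 0.36, and -6.00 without 2 d replicate 2).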

How the data were processed

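RNA-seq read counts of 6 HL-60 libraries, 3 after 4 h and 3 after 2 d in 1 µM ATRA, were analysed. The authors deposited raw counts per gene. Tools named in the submitters' processing notes are FastQC, Trim Galore (0.6.7), the aligner HISAT2 (2.1.0) and the counter HTSeq (1.99.2), with hg19 as the genome. Which annotation, strand setting and kit were used is not given in the sources used, so overlapping, antisense and near-identical genes are uncertain. Rows for unassigned reads were left out; reads outside genes made up 14% to 28.1% of a library.

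The counts were fitted in R 4.3.3 with edgeR 4.0.16 (filterByExpr, TMM scaling, quasi-likelihood test, 1 mean per group, 4 residual degrees of freedom), with Benjamini-Hochberg adjustment over 12122 genes. Alternatives used limma 3.58.1 and DESeq2 1.42.0 and other scalings, filters, thresholds, libraries and a replicate block; each library was left out in turn. For 97.7% of tested genes, GRCh38 transcripts of the same symbol gave a GC content and a length. Replicates differed by more than counting error (chi-square per degree of freedom 6.15 to 47.8). The scripts were tested on simulated data.

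The comparison, gene lists and markers were chosen with earlier results of these data known. Named genes are the 12 largest rises and the 12 largest falls of called genes averaging at least 10 CPM whose groups do not overlap, leaving out uncharacterized loci and small or long noncoding RNAs by the start of their symbol (RNA5, RNU, SNOR, MIR, LINC, LOC). To these come up to 4 called members per list by size of change at a mean of 1 CPM or more, a fixed set, the 5 genes per direction with the largest CPM difference, and the 5 per direction with most reads among those with 0 in the other group. Other genes are marked as chosen after their values were seen; members given only as a range, a count or a single fold within a list were chosen so too. Promoters are RefSeq sequences of GRCh38.p14, matched by symbol for 9665 tested genes, of which the 250 bases before the start were searched. Coordinates refer to that build and not to hg19. Some genes that the naming rule selects are not reported here.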

Additional observations from a re-analysis of the deposited data

How the results depend on the processing

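Counts of calls moved with the threshold and with the weight given to single libraries. With sample quality weights in limma-voom 7987 genes changed (3935 higher, 4052 lower). An adjusted p under 0.01 left 3405 (1592 higher, 1813 lower), and a fold of at least 2 left 2142 (1201 higher, 941 lower). Leaving out 1 library gave 3884 to 6591 changed genes, 1819 to 3261 higher, 2050 to 3330 lower and 1995 to 2321 of at least 2-fold. The lowest count came without 4 h replicate 2 and the highest without 4 h replicate 3, and 74.4% to 97.8% of the calls kept their call and direction. The other settings run (DESeq2, limma-voom, scaling by RLE or by library totals alone, a fit that omits the 20 genes with most reads, no filter, a filter at a mean of 1 CPM, all 12 libraries in the fit, and offsets for GC content and length) gave 4377 to 6626 changed genes. Library totals alone called 52.1% of changed genes higher, against 47.3%. Without a filter the median of all tested genes was -0.40, against -0.01, over 22970 genes.

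Same-numbered libraries of the 2 groups had correlations of their deviations of 0.136, 0.0108 and 0.229. Differently numbered libraries ran from -0.227 to 0.132, and 4 h replicate 2 correlated best with 2 d replicate 1 (0.132). Whether the numbers pair the samples cannot be decided from so few libraries per group. With the replicate block 5357 genes changed, 2589 higher and 2768 lower.

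Of the 227 named genes that were called, 20 lost the call under a setting other than a stricter threshold, 19 of them without some library, and the cause was not tested. Named genes that were not called but were under some setting are AZU1, CCL2 (also with the replicate block, edgeR adjusted p = 0.0415), CEBPA, MPO and SPI1. AZU1, not called at -0.23, changed sign without 4 h replicate 3, and leaving out 1 library gave values from -0.44 to 0.13. Genes with few reads were not tested. Changes in them are given only as the bounds below, for genes with no read in 1 of the groups, and smaller ones were not detectable at this depth.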

Other observations

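Several of the largest changes lay outside the gene lists. CCL24, the chemokine eotaxin 2 and a ligand of CCR3, had 0.186, 0 and 0.169 CPM at 4 h and 34.9, 38.2 and 28.9 CPM at 2 d, a log2 fold change of 8.14 ± 0.36 (edgeR adjusted p = 7.99e-07). With 4 reads in all at 4 h the size is loosely set, and the SE of 0.36 is too small. The log2 fold change ran from 7.50 without 4 h replicate 2 to 9.59 with quality weights. IHH, the hedgehog family ligand Indian hedgehog, rose from 2.05, 2.77 and 3.89 CPM to 129, 97.3 and 117 CPM (5.29 ± 0.23), and ALS2CL from 2.24, 0.655 and 1.01 CPM to 72, 89 and 95.8 CPM (6.08 ± 0.31, and 6.68 without 4 h replicate 1). VSIG4, a complement receptor of tissue macrophages, rose from 1.02, 1.09 and 1.01 CPM to 25.9, 26.6 and 20.3 CPM (4.53 ± 0.21). SIGLEC16 rose by 4.52 ± 0.26, FAM20C, a secretory pathway kinase, by 4.67 ± 0.24, PALLD, which bundles actin, by 4.62 ± 0.28, CADM1 by 4.57 ± 0.32 (5.20 without 4 h replicate 1), and GALNT12 by 4.38 ± 0.45 (5.65 without it). SEMA6B had 156, 178 and 435 CPM and then 2633, 1066 and 1734 CPM (2.82 ± 0.43), a wide spread in both groups, and 3.44 without 4 h replicate 3. In all of these genes every 2 d library lay above every 4 h library, which the rule for naming most of them required.

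Among the declines, GAL, the neuropeptide galanin, fell from 75.3, 94.3 and 114 CPM to 8.25, 8.88 and 10 CPM (-3.39 ± 0.19), MZB1, a chaperone of the endoplasmic reticulum known from plasma cells, from 29.6 ± 11.8 to 2.20 ± 0.133 CPM (-3.73 ± 0.31), and CST7, cystatin F, an inhibitor of lysosomal cathepsins, from 442, 513 and 665 CPM to 68.1, 70.5 and 74.4 CPM (-2.93 ± 0.18). SPNS3 (-4.47 ± 0.25), the zinc and iron importer SLC39A14 (-2.91 ± 0.31), FAM46C (-2.89 ± 0.15) and NT5DC2 (-2.85 ± 0.20) fell too. Of the abundant genes ENO1, an enolase of glycolysis, fell from 3773, 4284 and 6123 CPM to 2447, 2544 and 2124 CPM (-0.99 ± 0.20).

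Some genes had no read in 1 of the groups, so that folds are bounds against a floor of 3 reads over that group. The bounds cover only counting error in the group with no read, and the reads of the other group were taken as exact. FEV, an ETS family factor, had 0 reads at 4 h and 8, 14 and 9 reads at 2 d, at least 11.8-fold higher. FFAR3, another receptor of short-chain fatty acids, had 12, 6 and 4 reads at 2 d, at least 8.40-fold higher. PLEKHG5 had 18, 8 and 13 reads at 4 h and 0 at 2 d, at least 11.3-fold lower. HLA-F (9 reads), MIR6071 (18) and BEAN1-AS1 (8) were read at 2 d alone. MUC16, HMCN1, RYR2 and LRP2 were read at 4 h alone, with 50, 41, 38 and 37 reads, of which RYR2 had 1 in replicate 3 and all others were in 4 h replicate 1, the library with reads in 22265 genes. In that library 5263 genes were read that had 0 reads in the other 5.

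The replication-dependent histones, whose transcripts carry no poly(A) tail when made in S phase, had few reads: 9 of 60 were tested, and 5 rose and 0 fell. HIST1H2AC rose from 0.931, 0.873 and 0.423 CPM to 3.95, 4.02 and 3.34 CPM (2.33 ± 0.33); the count was 2 or 3 without 4 h replicate 2 or any 1 of the 2 d libraries. Among S100 and annexin genes 7 of 17 rose and 2 fell. Of 15 DNA methylation genes 2 rose (13.3%) and 1 fell (6.67%), shares under the background. DNMT3A, a de novo methyltransferase, rose from 20.9, 18.6 and 14 CPM to 45, 37.6 and 36 CPM (1.15 ± 0.17). TET1 fell (-1.07 ± 0.39), a call that was lost without any 1 library other than 4 h replicate 3. That call was also lost with limma-voom, library totals alone or the replicate block. TET2 rose (0.66 ± 0.24), a call that was lost without any 1 of the 2 d libraries or with library totals alone. Splicing regulators were lower in 8 of 31 (25.8%, near the background of 22.4%) and higher in 0. Of these regulators 2 to 5 were lower without any 1 library other than 4 h replicate 3. The element GAGGAAGT, a PU.1-type ETS site searched on both strands, was in 3.7% of the promoters of genes called higher, 1.81% of those called lower and 2.37% of all tested genes with a promoter.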
